A study of Homo sapiens with 4 samples.

Results

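The genes described here make, fold and ship secretory proteins in the endoplasmic reticulum (ER): chaperones, folding enzymes, sensors of unfolded protein, the machinery that carries nascent chains into the ER, and the coats and receptors of vesicle transport to and from the Golgi. The list holds 54 genes, chosen by function and matched to the probes by current symbol or older alias. Of these, 30 had at least 1 named probe and 28 had a value on at least 3 arrays. Those 28 stand among 7711 features (named genes and unnamed probes) tested in all. The cells were EJM, an established human multiple myeloma line labelled as bone marrow, a tumour of plasma cells, which secrete antibody. They carried an IκBα super-repressor, a form of the NF-κB inhibitor that resists signal-induced breakdown, under the control of the tetracycline repressor. Cells kept at 37 °C with 20 µg/ml doxycycline for 1 day, 2 days, 3 days or 4 days (Cy5) were each compared on 1 array with uninduced cells of the same genotype (Cy3). All 4 comparisons therefore share the transgene, and differ from the control in both doxycycline and the induced protein. No array of cells that lack the super-repressor but received doxycycline was used here. Whether the line is 1 clone is not stated in the labels.

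An antibody chain enters the ER while it is being made. The signal recognition particle binds its leading signal peptide and brings the ribosome to the Sec61 channel, and signal peptidase cuts the signal off. BiP (HSPA5), GRP94 (HSP90B1) and calreticulin (CALR) hold the chain while disulfide isomerases pair its cysteines, and COPII vesicles carry folded cargo to the Golgi. COPI vesicles bring escaped ER residents back with the help of KDEL receptors. When unfolded protein builds up, the sensors ATF6 and IRE1 (ERN1) switch on chaperone genes, in part through promoter sequences called ER stress response elements. Plasma cells keep this machinery at a high level because they secrete antibody continuously.

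Values are log2 ratios of induced over uninduced cells, so 0 is no difference and 1 is 2-fold higher after induction. Direction and log base are not stated in the deposited values and were taken from the dyes in the labels and from the range of the values; the opposite orientation would turn every sign, and a natural log would make every fold larger. Between 10321 and 13872 of 15246 probes had a value on an array. The day 1 and day 2 arrays were spread more widely (SD over probes of 0.517 and 0.569) than those of days 3 and 4 (0.345 and 0.38), so the percentile of a gene among all features of its array is given beside some values. Ratios give no level, so the plasma cell label could not be checked by presence of its markers. The median mean log2 ratio was 0.298 over 11 plasma cell markers, 0.022 over 15 T and NK cell markers, 0.026 over 8 myeloid markers and -0.035 over 8 stromal and red cell markers. Of these markers 1 passed the test (0.337% of all features), the red cell gene HBB (β-globin), at 0.854, 0.981, 0.801 and 0.778 (mean 0.85 ± 0.09; limma adjusted p = 0.0381). The other globin gene of the list, HBA1, did not share this and read -0.531, 0.454, -0.242 and -0.228 (mean -0.14 ± 0.42). The T and NK cell gene GZMA (granzyme A) ran from -1.357 on day 1 to 0.782 on day 4 (slope 0.71 ± 0.09 log2 per day, SE; limma adjusted p = 0.305). Of the 11 T and NK cell markers with 4 values, 6 had slopes below 0 (45.8% of all features) and 5 above 0. The part of these markers in the values of the secretory genes was not tested. In bulk RNA, fewer cells of a type and less RNA per cell cannot be told apart.

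The first comparison set the secretory genes of induced cells against those of uninduced cells, over the 4 days as a whole. The mean log2 ratio lay above 0 for 25 of the 28 genes, against 43.9% of all features, with a median of 0.317 against -0.032 over all features. In the opposite orientation both shares would be shares below 0. Of the 27 genes with values on every array, 14 lay above 0 on all 4 arrays, against 11.8% of all features. Below 0 on all 4 arrays were 0 of 27, against 859 of 6425 features. No single gene passed the test: 0 of 28 had a limma adjusted p under 0.05, where 0.337% of all features did, and the smallest adjusted p among the genes was 0.137. An unadjusted p under 0.05 with a mean above 0 was found for 14 of 28 in the same limma fit (6.47% of all features). With a mean below 0 it was found for 0 of 28 (6.0% of all features). With days 3 and 4 alone 6 genes passed, all higher (4.69% of all features): ATF6, EDEM1, HSPA5, SPCS3, SSR3 and SSR4. With array weights 2 passed, SPCS3 and SSR4 (1.02% of all features were called higher). The list was chosen with earlier results of these arrays known, so its direction is a description. A gene-specific dye bias, which no dye swap cancels, remains in every mean, and its part was not tested. Whether the uninduced RNA was 1 preparation on all 4 arrays is not stated in the labels; if it was, the arrays are not independent, and a deviation of that RNA would enter every day alike.

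**Figure D1:**
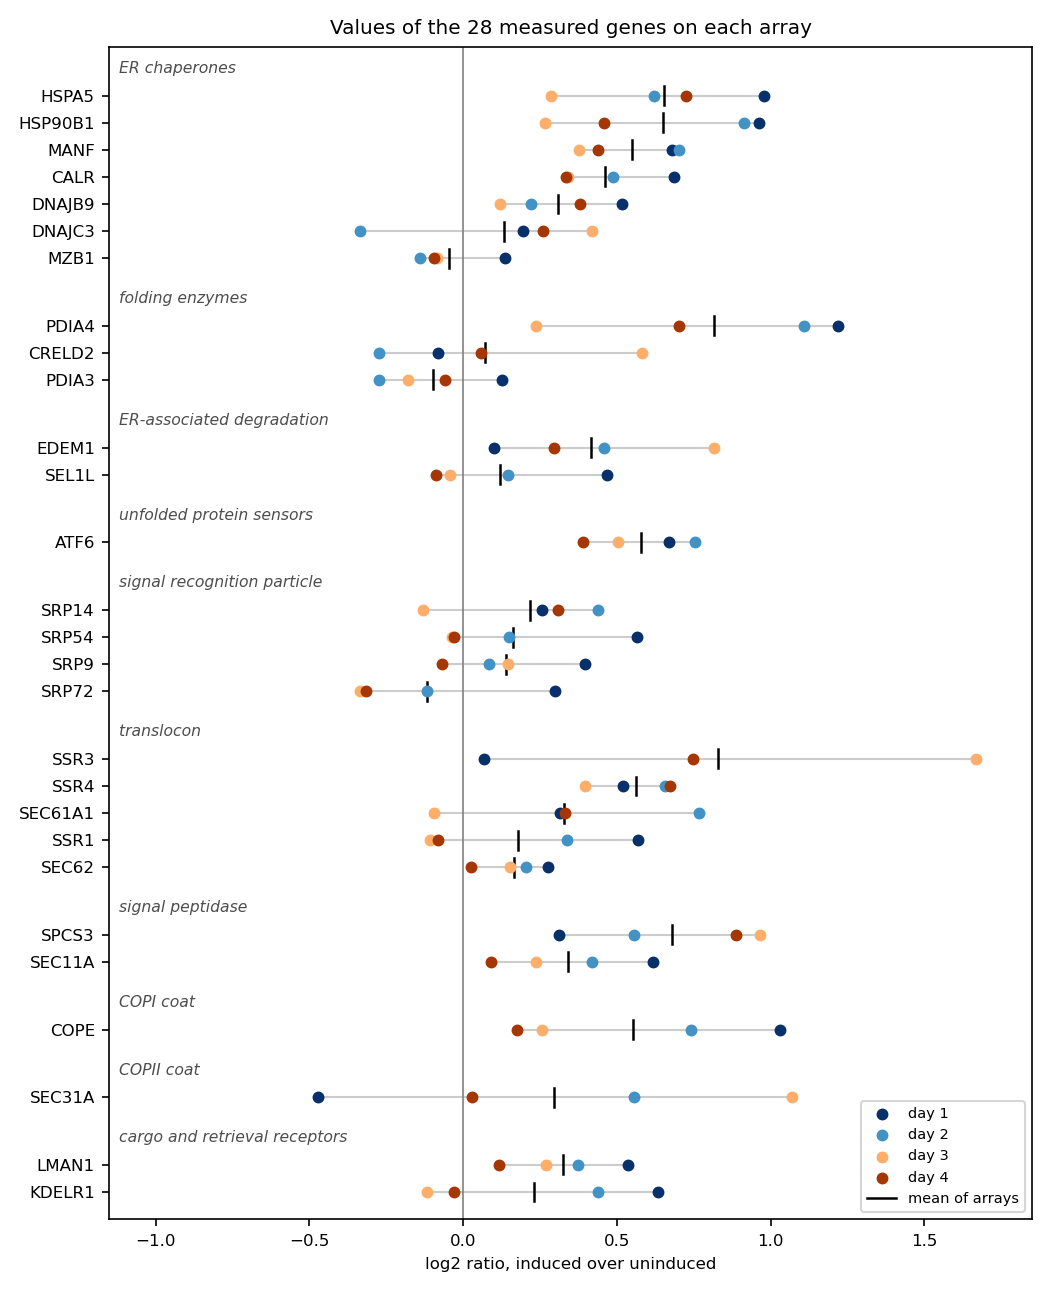
Log2 ratio of induced over uninduced cells (x axis) for each of the 28 measured genes, grouped by role. Each point is 1 array, coloured by day, and the black tick is the mean of the arrays. HSPA5, HSP90B1, MANF, CALR, ATF6, SSR4 and SPCS3 lay above 0 on every day, while MZB1, PDIA3 and SRP72 had means below 0.

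Among 7 measured ER chaperones 6 had means above 0, with medians of 0.68, 0.488, 0.285 and 0.38 for days 1 to 4. HSPA5 encodes BiP, the ER Hsp70 that binds unfolded chains and holds the sensors inactive. Its log2 ratios for days 1 to 4 were 0.978, 0.622, 0.285 and 0.726, which placed it at percentiles 98.4, 93.8, 83.3 and 97.7 of its arrays. The mean was 0.65 ± 0.29 (SD, 4 arrays), or 1.57-fold higher, with an adjusted p of 0.154. HSP90B1, the ER Hsp90 (GRP94), read 0.962, 0.912, 0.267 and 0.458 on days 1 to 4. Its mean was 0.65 ± 0.34 (adjusted p = 0.197). Both of its probes lay above 0 on every day, with means of 0.658 and 0.642. The first read 1.204 on day 1 and 0.23 on day 4, and the other 0.72 and 0.685.

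MANF, a small secreted ER stress protein, read 0.68, 0.702, 0.377 and 0.438. The mean was 0.55 ± 0.17 (adjusted p = 0.154), and all 3 probes lay above 0 on all 4 days. CALR, the lectin chaperone that holds glycoproteins, read 0.685, 0.488, 0.34 and 0.334, with a mean of 0.46 ± 0.17 and an adjusted p of 0.219. Its 3 probes also lay above 0 on every day, with probe means from 0.255 to 0.606. DNAJB9 (ERdj4), a BiP cochaperone, had a mean of 0.31 ± 0.18 that its probes did not share. One probe read 0.517, 0.557, 0.472 and 0.591, while the other, which had no day 1 value, read -0.117, -0.231 and 0.169.

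DNAJC3 (p58IPK), another BiP cochaperone, lay below 0 on day 2 at -0.336 and above 0 on the other days, at 0.196, 0.418 and 0.26. The day 2 value is that of 1 probe, because its other probe had none on that day and read 0.247, 0.463 and 0.204. MZB1, a plasma cell protein that works with GRP94 in antibody assembly, was the chaperone with a mean below 0. It read 0.136 on day 1 and -0.141, -0.084 and -0.096 on days 2 to 4, and its mean was -0.05 ± 0.12, with probe means of both signs (-0.12 and 0.027). CANX, the membrane-bound counterpart of calreticulin, had a single value of 0.427 on day 4 and was not tested. Probes named for DNAJB11, HYOU1 and SDF2L1 were not analysed here.

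PDIA4 (ERp72), a disulfide isomerase found with BiP and GRP94, had the largest mean of the genes measured on all 4 arrays. Its values were 1.218, 1.108, 0.237 and 0.703, so it was over 2-fold higher on days 1 and 2. The mean was 0.82 ± 0.45 (1.76-fold; adjusted p = 0.156), and it stood at percentile 99.4 on day 1 and 78.8 on day 3. These values come from 1 probe, since its other probe had none. PDIA3 (ERp57), the isomerase that pairs with calnexin and calreticulin, did not share this pattern. It read 0.126, -0.274, -0.18 and -0.06, with a mean of -0.10 ± 0.17, and its probe means differed in sign (-0.209 and 0.015). CRELD2, an ER stress-induced protein with isomerase-like activity, read -0.08, -0.274, 0.582 and 0.059, with a mean of 0.07 ± 0.37. Among the 3 folding enzymes PDIA4 was thus alone in lying above 0 on all 4 days. PDIA6, P4HB and FKBP11 were not analysed here.

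The promoters of these genes were set beside the expression values because the chaperones are the textbook targets of ER stress response elements. RefSeq promoter windows (GRCh38.p14, 250 bases before to 50 after an annotated start) were found for 49 of the 54 genes. The element ERSE, which is CCAAT and CCACG with any 9 bases between them and was searched on both strands, was matched for 6 of 49 genes (12.2%) against 0.133% of 15842 protein-coding genes and 0.0769% of all windows. The matched genes were CALR, CANX, CRELD2, HSP90B1, HSPA5 and PDIA6. The list was chosen by function and holds such textbook targets, so a share above that of all genes could be foreseen and is a description. Of the matched genes, HSPA5, HSP90B1, CALR and CRELD2 had tested values. The 250 bases before the start of each of these 4 genes are shown because they hold the element, with the matches in capitals. HSPA5 lies at chr9:125241344-125241593 (minus strand), HSP90B1 at chr12:103930160-103930409 (plus), CALR at chr19:12938359-12938608 (plus) and CRELD2 at chr22:49918384-49918633 (plus).
HSPA5: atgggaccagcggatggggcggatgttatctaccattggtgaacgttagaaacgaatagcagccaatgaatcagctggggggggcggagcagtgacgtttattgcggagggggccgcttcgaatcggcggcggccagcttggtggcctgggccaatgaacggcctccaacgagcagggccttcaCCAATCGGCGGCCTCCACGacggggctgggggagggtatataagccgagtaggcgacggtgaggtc
HSP90B1: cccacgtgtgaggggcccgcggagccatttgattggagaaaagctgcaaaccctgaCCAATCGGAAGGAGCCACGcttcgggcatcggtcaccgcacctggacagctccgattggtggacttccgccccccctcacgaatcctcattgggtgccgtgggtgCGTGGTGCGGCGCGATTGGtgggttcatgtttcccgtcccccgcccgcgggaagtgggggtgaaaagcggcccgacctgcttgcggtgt
CALR: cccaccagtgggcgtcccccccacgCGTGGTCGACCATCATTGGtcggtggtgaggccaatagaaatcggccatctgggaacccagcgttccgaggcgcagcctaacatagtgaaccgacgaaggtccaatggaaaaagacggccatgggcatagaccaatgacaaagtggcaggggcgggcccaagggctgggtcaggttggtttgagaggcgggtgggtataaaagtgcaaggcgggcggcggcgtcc
CRELD2: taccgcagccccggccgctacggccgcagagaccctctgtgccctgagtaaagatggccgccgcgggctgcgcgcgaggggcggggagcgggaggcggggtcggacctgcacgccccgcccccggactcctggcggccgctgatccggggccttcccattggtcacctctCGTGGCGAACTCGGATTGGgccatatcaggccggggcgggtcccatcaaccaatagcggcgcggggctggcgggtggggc
HSP90B1 held 2 matches, from base -194 and from base -89, on opposite strands. The HSPA5 match started at base -66, that of CRELD2 at -80 and that of CALR at -225. HSPA5, HSP90B1 and CALR, described above, lay above 0 on all 4 days, while CRELD2, with the same element, lay above 0 on 2 of 4. The median mean log2 ratio was 0.556 over these 4 genes and 0.309 over the 23 tested genes without a match, which ranged from -0.117 to 0.828. PDIA4, MANF, SSR4 and SPCS3, all among the highest, were in the group without a match in their windows.

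The related element ERSE-II, ATTGG and CCACG with any 1 base between them, was matched for HERPUD1, HYOU1 and SDF2L1 (3 of 49, 6.12%, against 0.0947% of protein-coding genes), and no values of these genes were analysed here. The core of the unfolded protein response element (UPRE), the 8 letters shown in capitals in the next 3 sequences on either strand, was matched for 9 of 49 genes (18.4%, against 1.05% of protein-coding genes), mostly coat and translocon genes: COPA, COPB1, COPB2, HYOU1, KDELR3, SEC23A, SEC62, SSR3 and SSR4. In HYOU1 it overlapped an ERSE-II match, the single overlap between different motifs in these windows. The 3 genes with tested values all held it on the strand opposite to the gene, and the 60 bases around it are shown in the direction of the gene, with the match in capitals. SSR3 lies at chr3:156554136-156554195 (minus strand), SSR4 at chrX:153794513-153794572 (plus) and SEC62 at chr3:169966747-169966806 (plus).
SSR3: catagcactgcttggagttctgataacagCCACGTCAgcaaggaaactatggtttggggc
SSR4: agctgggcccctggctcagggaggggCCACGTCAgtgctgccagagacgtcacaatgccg
SEC62: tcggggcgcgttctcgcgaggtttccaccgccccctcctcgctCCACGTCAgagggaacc
NF-κB sites (the 10-base consensus, both strands) were matched for 7 of 49 genes (14.3%), against 15.9% of protein-coding genes. The 5 with tested values were COPE, CRELD2, EDEM1, LMAN1 and MANF, with a median mean log2 ratio of 0.417 against 0.302 over the other 22. A match is a description of the letters and not evidence of binding. The shares for ERSE-II and the UPRE core are likewise descriptions, because the list was chosen by function.

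**Figure D2:**
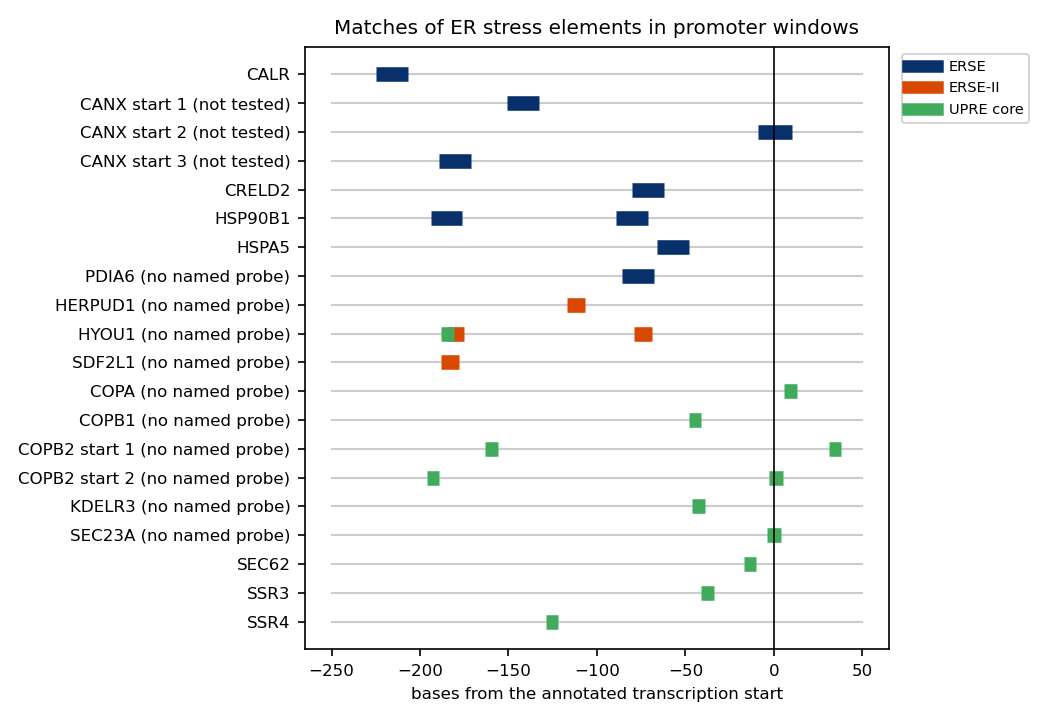
Positions of ERSE, ERSE-II and UPRE core matches in the promoter windows of the genes (y axis, 1 line per start site), in bases from the annotated transcription start (x axis). ERSE matches lie in HSPA5, HSP90B1, CALR and CRELD2, which have tested values, and in CANX and PDIA6, which have not.

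ATF6, the membrane-bound transcription factor that is cut free when unfolded protein builds up, was the measured sensor of the list, and ERN1 was not analysed here; PERK is given with the wider pathway. It read 0.671, 0.753, 0.503 and 0.389 on days 1 to 4, at percentiles from 89.6 to 95.9 of its arrays. The mean was 0.58 ± 0.16 (1.49-fold; adjusted p = 0.137), and its 3 probes lay above 0 on every day, from 0.214 to 1.066. EDEM1, a lectin that hands misfolded glycoproteins to ER-associated degradation, was highest on day 3, at 0.099, 0.457, 0.815 and 0.297. SEL1L, the adaptor of the ER ubiquitin ligase HRD1, read 0.467, 0.146, -0.044 and -0.089, so it lay above 0 early and below 0 late. Their means were 0.42 ± 0.30 for EDEM1 (adjusted p = 0.323) and 0.12 ± 0.25 for SEL1L (adjusted p = 0.727). HERPUD1 and DERL3, of the same pathway, were not analysed here.

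All 4 measured subunits of the signal recognition particle lay above 0 on day 1, and 1 of 4 did on day 3 and on day 4. Their median was 0.348, 0.116, -0.083 and -0.049 on days 1 to 4. SRP54, the GTPase that binds the signal peptide, read 0.564, 0.148, -0.036 and -0.031, and its probes had nearly equal means (0.161 and 0.162). SRP72, a scaffold of the particle, read 0.3, -0.118, -0.334 and -0.317, and its mean of -0.12 ± 0.30 was the lowest of the 28 genes. Some of its 5 probes had values on days 3 and 4 alone, so the averages of those days mix different probes. On day 3 its probes ran from -0.785 to 0.459. With only the SRP72 probes that had all 4 values the mean was -0.197. SRP9 and SRP14 form the domain that pauses elongation. SRP9 read 0.396, 0.084, 0.146 and -0.068, and SRP14 read 0.255, 0.438, -0.131 and 0.308. Neither value is settled by the probes: the 3 probes of SRP9 had means of -0.139, 0.16 and 0.502, and the 2 of SRP14 had means of 0.642 and -0.014. The higher SRP14 probe has no day 3 value, which is the day on which the gene's average is lowest.

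Each of the 5 measured translocon genes had a mean above 0. SSR4, the δ chain of the signal sequence receptor (TRAP) beside the Sec61 channel, varied little, at 0.521, 0.657, 0.397 and 0.673. Its mean was 0.56 ± 0.13, at percentiles between 90.2 and 97.2 on every array, and its adjusted p was 0.137. SSR3, the γ chain, had no day 2 value and read 0.067, 1.668 and 0.749 on days 1, 3 and 4. Its mean of 0.83 ± 0.80 (3 arrays; adjusted p = 0.354) rests on 1 probe and mainly on day 3, when it stood at percentile 99.9. SSR1, the α chain, read 0.568, 0.338, -0.108 and -0.083, a different course from SSR4 although both chains belong to 1 complex. Its 3 probes differed: one read 1.075, 0.275, -0.411 and -0.22, and another stayed above 0 at 0.758, 0.517, 0.107 and 0.054. The last had no day 4 value and read -0.13, 0.222 and -0.021. SEC61A1, the channel itself, read 0.314, 0.767, -0.094 and 0.33, with a mean of 0.33 ± 0.35 (adjusted p = 0.439). SEC62, which assists entry of short chains, read 0.277, 0.204, 0.152 and 0.025. Its 3 probes ran in different directions: one read -0.384 on day 1 and 0.346 on day 4, and another 0.938 and -0.203. SEC61B, SEC61G, SEC63 and SSR2 were not analysed here.

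The measured chains of signal peptidase were both above 0 on all 4 days and had opposite courses. SPCS3 read 0.311, 0.555, 0.967 and 0.888, with a mean of 0.68 ± 0.30 (1.60-fold; adjusted p = 0.15). SEC11A, a catalytic subunit, read 0.619, 0.42, 0.238 and 0.09, with a mean of 0.34 ± 0.23 (adjusted p = 0.357). Each is measured by 1 probe. SPCS1, SPCS2 and SEC11C were not analysed here.

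Vesicle transport was thinly measured, with 4 of 13 genes. COPE, a subunit of the COPI coat, read 1.031, 0.741, 0.258 and 0.176. It was 2-fold higher on day 1, at percentile 98.7, and stood at percentile 72.1 on day 4, with a mean of 0.55 ± 0.41 (adjusted p = 0.275). KDELR1, a receptor that returns escaped chaperones to the ER, read 0.633, 0.438, -0.119 and -0.031, again above 0 early and below 0 late. LMAN1 (ERGIC-53), a lectin that carries glycoproteins out of the ER, read 0.536, 0.375, 0.27 and 0.118, with a mean of 0.32 ± 0.18 (adjusted p = 0.354). Its probe with values on every day read 0.536, 0.375, 0.507 and 0.132. The other probe had values on days 3 and 4 alone (0.032 and 0.105), so the averages of those days mix different probes. SEC31A, of the outer COPII coat, was the most variable of the genes measured on all 4 arrays: it read -0.472, 0.556, 1.071 and 0.029, with a mean of 0.30 ± 0.67. It was over 2-fold higher on day 3 and below 0 on day 1, and a single probe measured it. SEC23B had probes without values, and COPA, COPB1, COPB2, SEC13, SEC23A, SEC24D, KDELR2 and KDELR3 were not analysed here.

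**Figure D3:**
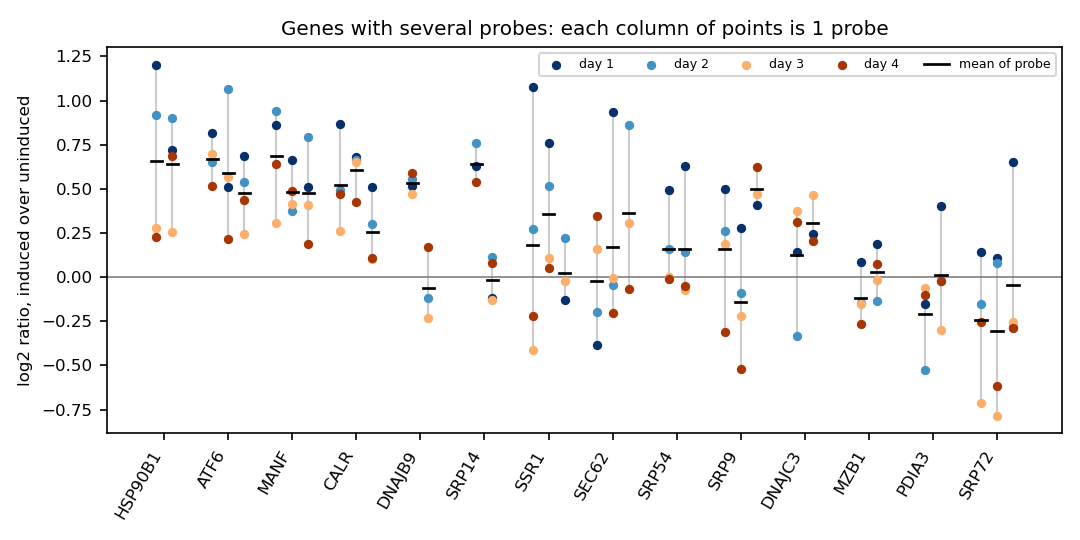
Log2 ratio (y axis) of each probe with at least 3 values, for the 14 genes with more than 1 such probe. Each column of points is a probe, colours are days and the black tick is the probe's mean. The probe means had the same sign for 8 genes, among them HSP90B1, MANF, CALR and ATF6, and both signs for 6.

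The second question was how the genes moved over the 4 days. The measured genes had medians of 0.492, 0.438, 0.248 and 0.218 for days 1 to 4, where those of all features were -0.062, -0.081, 0.017 and 0.011. A day 1 value above 0 was found for 26 of 28 genes (44.1% of all features), and a day 2 value above 0 for 22 of 27 (41.6%). By day 3 the count was 19 of 28 (52.9%), and by day 4 it was 20 of 28 (51.5%). After every array was scaled to an equal spread the medians were 0.435, 0.422, 0.305 and 0.264, so the step between days 1 and 2 and days 3 and 4 was smaller. PDIA4 and COPE were at least 2-fold higher on day 1 (1.51% of all features), and PDIA4 also on day 2 (2.21%). SSR3 and SEC31A were so on day 3 (0.458%), and no gene was on day 4 (0.797%). No gene was at least 2-fold lower on any day, where 2.24%, 3.3%, 0.419% and 0.457% of all features were.

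By role, the medians were close on day 3 for folding and transport genes and further apart on day 4. The 10 chaperones and folding enzymes had medians of 0.598, 0.354, 0.276 and 0.357 on days 1 to 4. The 11 genes of targeting, translocation and signal cleavage had 0.314, 0.379, 0.146 and 0.09, and the 4 coat and cargo receptor genes had 0.584, 0.497, 0.264 and 0.074. These differences between groups were not tested. On day 3 the coat and cargo receptor genes ran from -0.119 to 1.071. ATF6, SEL1L and EDEM1 were in none of these groups.

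**Figure D4:**
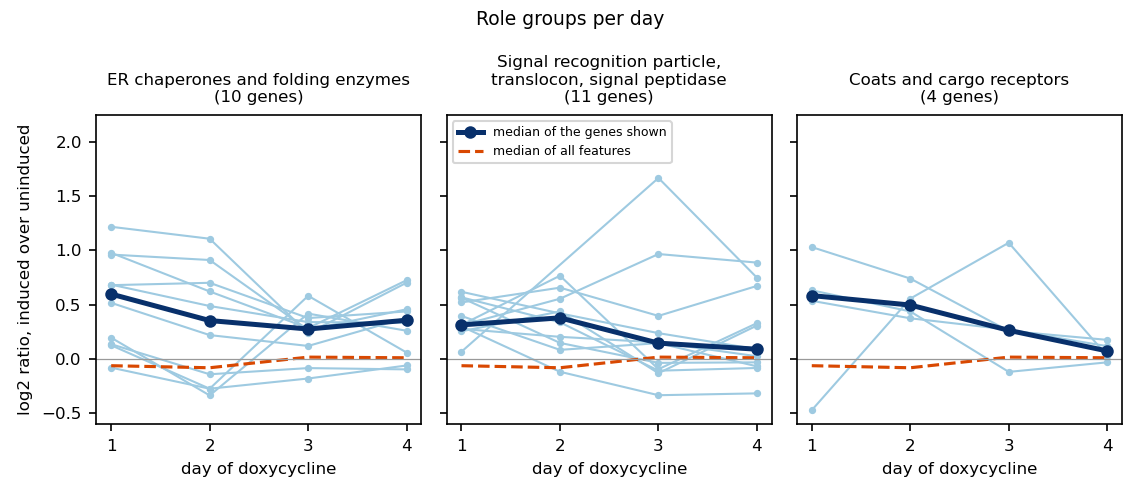
Log2 ratio (y axis) against day of doxycycline (x axis) for 3 role groups. Thin lines are genes, the thick line is the median of the genes shown and the dashed line is the median of all features. The folding genes had a median of 0.357 on day 4, and the coats and cargo receptors one of 0.074.

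Of the 27 genes with 4 values, 17 had their highest value on day 1. Day 2 was the highest for 4, day 3 for 5 and day 4 for 1. The same counts were not made over all features, so these are a description. The arrays of days 1 and 2 were also spread more widely, and the part of that spread in the counts was not tested. The slope on day was below 0 for 21 of 27, against 45.8% of all features, with a median slope of -0.109 log2 per day against 0.019. None passed the test on the slope (limma, 0 of 27; 0.0% of all features), and 3 slopes below 0 reached an unadjusted p under 0.05 (5.73% of all features), while 0 slopes above 0 did (9.25%). Those were COPE at -0.30 ± 0.09 log2 per day (SE; limma adjusted p = 0.305), SSR1 at -0.24 ± 0.09 and KDELR1 at -0.25 ± 0.09 (adjusted p = 0.319 for both). PDIA4 had a slope of -0.24 ± 0.13 and HSP90B1 of -0.22 ± 0.10 (adjusted p = 0.408 and 0.371). After scaling to an equal spread the slopes became -0.12 for PDIA4, -0.13 for HSP90B1 and -0.23 for COPE, so the size of each depends on the spread of the arrays. SPCS3 ran the other way, at 0.21 ± 0.09 (adjusted p = 0.348), and SSR4 had a slope of 0.02 ± 0.09. The slopes cannot separate time in culture from the length of induction.

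Other genes of the secretory pathway were listed by function. Of 152 such genes 48 were tested, and 29 had means above 0 (43.9% of all features), with a median of 0.074. In the limma fit 0 passed in either direction (0.337% of all features), and 7 had an unadjusted p under 0.05, all above 0 (6.47%). The difference between these genes and the 28 described above was not tested. The 9 further folding and redox genes had medians of 0.383, 0.342, 0.192 and 0.16 on days 1 to 4. Among them PPIB (cyclophilin B, a prolyl isomerase of the ER) read 0.72, 0.636, 0.432 and 0.525, with a mean of 0.58 ± 0.13 (adjusted p = 0.123). ERP44, which retains unfinished antibody in the early secretory pathway, read 1.068, 0.553, 0.337 and 0.712, with a mean of 0.67 ± 0.31 (adjusted p = 0.154). QSOX1, a sulfhydryl oxidase, had a mean of 0.24 ± 0.13. The lowest means of this list were those of PDIA2 (-0.17 ± 0.41), RCN2 (-0.02 ± 0.50) and GPX7 (-0.01 ± 0.10, 3 arrays).

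The 6 glycosylation and glycan trimming genes had medians of 0.486, 0.369, 0.051 and 0.103. PRKCSH, the β chain of glucosidase II, had a mean of 0.37 ± 0.17 (adjusted p = 0.302), and the oligosaccharyltransferase subunits RPN1 and DDOST had means of 0.34 ± 0.28 and 0.35 ± 0.38. UGGT2, a glucosyltransferase that senses folding, had the lowest at -0.08 ± 0.63, followed by MOGS at 0.12 ± 0.14 and DAD1 at 0.21 ± 0.21. The 7 targeting and insertion genes had a median of the means of -0.016. TRAM1, which neighbours the translocon, read 0.743, 0.605, 0.306 and 0.288 (mean 0.49 ± 0.23; adjusted p = 0.226), RRBP1 had a mean of 0.08 ± 0.24 and EMC1 of 0.05 ± 0.23 (3 arrays). SEC61A2, TRAM2 and KTN1 had the lowest, at -0.16 ± 0.46, -0.09 ± 0.34 and -0.07 ± 0.13.

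The 14 genes of ER degradation and stress signalling had medians of 0.292, 0.072, 0.001 and -0.194, with 12 of 14 slopes below 0 (45.8% of all features). XBP1, the transcription factor spliced by IRE1, read 0.848, 0.703, 0.238 and -0.203 (mean 0.40 ± 0.48; adjusted p = 0.439). OS9, a lectin of ER-associated degradation, read 0.291, 0.442, 0.41 and 0.437 (mean 0.40 ± 0.07; adjusted p = 0.238), and MBTPS1, the protease that cuts ATF6, had a mean of 0.29 ± 0.30. PPP1R15A (GADD34), which restores translation after stress, had the lowest mean at -0.24 ± 0.22, and BAX and EDEM3 had means of -0.125 ± 0.194 and -0.12 ± 0.146. The sensor kinase PERK (EIF2AK3) read 0.292, -0.135, -0.008 and -0.151, with a mean of -0.001 ± 0.205. ATF4 and DDIT3, which act downstream of it, read 0.786, -0.026, -0.183 and -0.299 and 0.287, 0.163, -0.011 and -0.126. On day 1 ATF4 thus lay above ATF6 (0.671), and on days 2 to 4 below it. The differences between these genes were not tested, and the last 3 were named after their values were seen.

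The 12 further transport genes had medians of 0.172, -0.041, -0.04 and -0.082. ERGIC3 read 0.739, 1.083, 0.023 and 0.092 (mean 0.48 ± 0.51; adjusted p = 0.384), the tether GOLGB1 had a mean of 0.24 ± 0.26 and MCFD2, the partner of LMAN1, of 0.13 ± 0.11. The cargo adaptor SEC24B had a mean of -0.24 ± 0.18, SEC16A of -0.15 ± 0.29 and TMED10 of -0.14 ± 0.33.

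**Figure D5:**
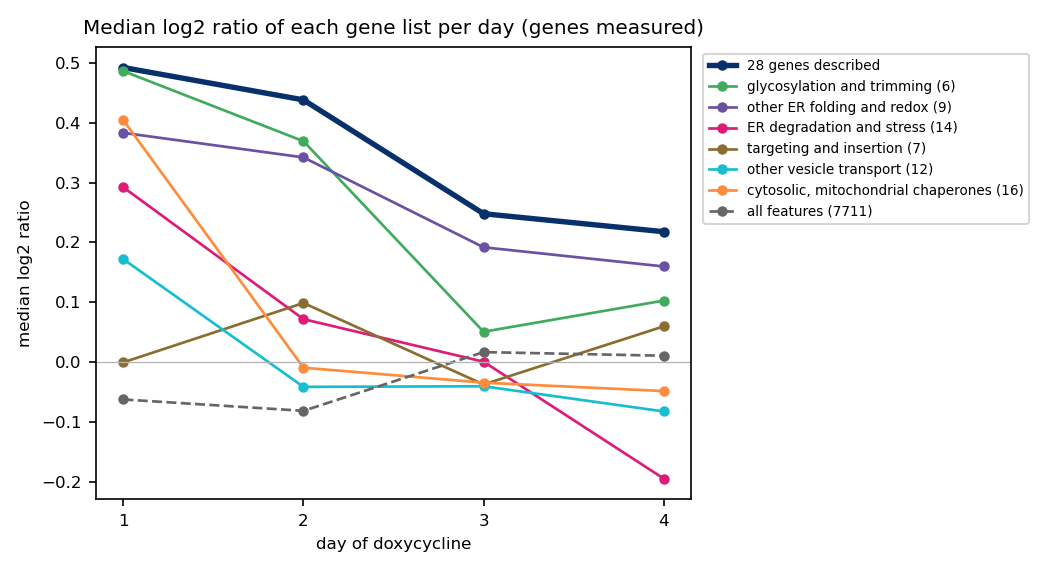
Median log2 ratio (y axis) of each gene list on each day of doxycycline (x axis), with the number of measured genes in brackets. The 28 genes described had the highest median of the 7 gene lists drawn on each day, at 0.492 on day 1 and 0.218 on day 4, and the dashed line is the median of all features. The plasma cell markers, not drawn, had higher medians on days 1 and 2 (0.563 and 0.7) and lower ones on days 3 and 4 (0.238 and 0.096).

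Chaperones of the cytosol and mitochondria were set beside those of the ER. The 16 measured had medians of 0.404, -0.009, -0.034 and -0.048 on days 1 to 4, and 9 had means above 0 (43.9% of all features). In the limma fit 0 of 16 passed (0.337% of all features), and 4 had an unadjusted p under 0.05, all above 0 (6.47%). The 7 ER chaperones had 0.68, 0.488, 0.285 and 0.38. The ER list thus had the higher median on each day, and no test of this difference was made. The highest of the 16 by the test statistic were PTGES3 (0.57 ± 0.44), CDC37 (0.36 ± 0.17) and DNAJA3 (0.32 ± 0.20), cochaperones of Hsp90 or Hsp70, and the lowest were TRAP1 (-0.20 ± 0.20), ST13 (-0.18 ± 0.11) and FKBP4 (-0.15 ± 0.22). HSP90AA1, the cytosolic counterpart of HSP90B1, read 0.442, 0.218, -0.107 and -0.249, below HSP90B1 on every day. HSPA1A and HSPA9, the inducible cytosolic and the mitochondrial Hsp70, had means of -0.02 ± 0.35 and -0.125 ± 0.396, where HSPA5 was at 0.65. These last 3 genes were chosen as counterparts after their values were seen.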

How the data were processed

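The deposited values are 1 log2 ratio per probe and array, Cy5 (induced) over Cy3 (uninduced), on 4 two-colour arrays, labelled from 50 µg of total RNA per dye, per the labels' protocols. How the authors corrected background, normalized and filtered spots is not given in the labels, nor are the ratio's base and direction: a largest size of 7.255 is beyond a scanner's range in base 10, and a natural log is not excluded. Symbols came from the platform annotation (10169 probes with 1 symbol, 4 with several, 5073 unnamed here) and were updated through the Entrez identifier (10128 probes) or alias (15) with RefSeq (GRCh38.p14); probes of a gene were averaged per array, which gave 9679 features. cDNA probes can cross-hybridise with related transcripts. The mean over the 4 arrays was tested against 0 for 7711 features with at least 3 values, and the slope on day for 6425 features with 4 values, with limma 3.58.1 in R 4.3.3 (two-sided, Benjamini-Hochberg over all features, threshold 0.05). The fits were run on simulated independent noise with added means and slopes larger than any given here. That check does not cover effects of the sizes described or arrays that share a control RNA. Each day is 1 array, so the fits ask what the days share, values per day have no replicate check, p-values reflect the spread of these arrays alone, and the number of arrays limits the precision. Named in full were the sensor with values (ATF6), in each role group up to 4 genes by the statistic on the mean and 2 by that on the slope, and every gene 2-fold away from 0; of the wider lists, 3 genes in each direction by the statistic on the mean, a rule extended to the cytosolic chaperones after their values were seen. The other measured genes of the list are given so that each is accounted for. The genes and lists were chosen with earlier results of these data known. Alternatives covered scaling, probe choice, filters, weights and the arrays used. A planned split by the proteins' C-terminal retrieval signal was not run.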

Additional observations from a re-analysis of the deposited data

How the results depend on the processing

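No paired analysis was possible because each day has 1 array and the labels give no replicate numbers. Against 26 features called on the mean, 42 were called with values on all 4 arrays, 144 with array weights, 1 with days 1 and 2 alone, 630 with days 3 and 4 alone and 3 to 5 with an array left out. Of the secretory genes 0 were called on the mean, except 2 with array weights and 6 with days 3 and 4 alone. The slope called 0 features in every alternative run. The number of positive slopes was 6 of 27, and 10 when a gene was read from its most complete probe. The sign of the mean held in every alternative for 19 of 28 genes and that of the slope for 18 of 27. Means that changed sign were, with days 1 and 2 alone, DNAJC3 (-0.07), CRELD2 (-0.177) and SRP72 (0.091). With days 3 and 4 alone they were SEL1L (-0.066), SRP54 (-0.033), SSR1 (-0.096) and KDELR1 (-0.075). From the most complete probe they were SRP14 (-0.014, the same with complete probes only) and SEC62 (-0.02). The mean of CRELD2 ran from -0.098 (without day 3) to 0.187 with an array left out. Slopes that changed sign on the most complete probe were DNAJB9 (0.014) and SRP14 (0.034), both also with complete probes only, PDIA3 (0.062) and SEC62 (0.255). The value for SSR4 was -0.054 for days 3 and 4 against days 1 and 2. With an array left out, slopes crossed 0 for 8 genes. They ran from -0.346 to 0.052 for HSPA5, -0.198 to 0.08 for DNAJB9, -0.11 to 0.023 for MZB1, -0.153 to 0.107 for PDIA3, -0.08 to 0.358 for EDEM1 and -0.264 to 0.772 for SEC31A, each turning without day 1. The ranges were -0.193 to 0.006 for SRP14, turning without day 3, and -0.062 to 0.045 for SSR4, turning without day 4. The cause was not tested. Signal over background is unknown here, so no filter on dim spots was tried.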

Other observations

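Plasma cell markers and antibody chains were read on the same arrays as the secretory genes; the marker list shares MZB1 and XBP1 with the lists above and JCHAIN with the antibody chains. Of 11 measured plasma cell markers 9 had means above 0 (43.9% of all features), and 0 passed (0.337%). Their medians were 0.563, 0.7, 0.238 and 0.096 on days 1 to 4. JCHAIN, the chain that joins antibody multimers and so a cargo of this pathway, read 1.751, 0.726, 0.735 and 0.79 (mean 1.00 ± 0.50; limma adjusted p = 0.123). CD38, a surface enzyme of plasma cells, read 0.563, 0.704, 0.761 and 0.736 (mean 0.69 ± 0.09; limma adjusted p = 0.0741). Of 5 measured antibody chain genes 3 had means above 0 (43.9% of all features). The heavy chain genes IGHM, IGHA1 and IGHD had means of 0.31 ± 0.18, 0.11 ± 0.27 and -0.26 ± 0.14. SDC1, PRDM1 and IRF4 were, like many of the secretory genes, higher on day 1 (1.152, 0.458 and 0.461) than on day 4 (0.156, -0.096 and -0.28). Of the 11 plasma cell markers 9 had slopes below 0 (45.8% of all features). The other 2, CD27 and CD38, had slopes above 0, and CD27 read -0.485, -0.088, 0.048 and 0.354. The genes named here were chosen after their values were seen. Their part in the values of the secretory genes was not tested.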
